A study of Trichoderma harzianum with 18 samples.

Results

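The genes described here are 300 genes of the filamentous fungus Trichoderma harzianum whose mRNA was low in the wild type on cellulose and high in the wild type on D-fructose, in the wild type without a carbon source and in the Δxyr1-2 mutant on cellulose. They were chosen on the group medians of FPKM (fragment counts scaled to the length of the transcript and the size of the library) after adding 0.5. Each of the 3 high groups had to be at 10 or more and at 3-fold or more of the wild-type cellulose median, and the wild-type medians on D-fructose and without carbon had to lie within 3-fold of each other. Of the 14290 annotated genes, 323 met this rule, and the 300 with the highest smallest ratio to the wild type on cellulose were kept, 2.10% of the annotated genes. The 3 genes M431DRAFT_478307, M431DRAFT_488937 and M431DRAFT_495252 were left out by the rule. The low level in the wild type on cellulose, and the contrasts with the 3 high groups, are therefore given as a description without a test.

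The libraries came from mycelium of strain CBS 226.95 (the wild type) and of Δxyr1-2, which is a single deletion line in which a hygromycin resistance cassette replaced xyr1. All cultures were grown from spores for 36 h in D-fructose pre-cultures, washed, moved to shake flasks with 25 mM D-fructose, 1% cellulose or no added carbon source, and collected 18 h later. This gave 6 groups of 3 replicate cultures, 18 libraries in all: wild type and Δxyr1-2, each in cellulose, D-fructose and no carbon cultures. The rule used 12 of these libraries, and the mutant cultures on D-fructose and without carbon took no part in it.

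XYR1 is the zinc cluster transcription factor that switches on cellulase and xylanase genes in Trichoderma. When mycelium is moved from a sugar to cellulose, the wild type makes secreted enzymes that release cellobiose and glucose from the polymer, while a strain without XYR1 makes few of them. Genes for the use of poorer carbon sources, such as the glyoxylate cycle enzymes that let fungi grow on acetate or fatty acids, are known from other fungi to be kept low by readily used sugars.

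The strain labels were checked on xyr1 itself (M431DRAFT_1126), which had 25.7 to 273 FPKM in the 9 wild-type libraries and 0 to 0.196 FPKM, at most 11 reads, in the 9 mutant libraries. The libraries held 16208381 to 21263103 reads on genes. Replicate 3 of the wild type on cellulose stood apart from replicates 1 and 2, with 12216 FPKM of the cellobiohydrolase gene CEL7A (M431DRAFT_7497) against 2002 and 1602. In Δxyr1-2 on D-fructose, the FPKM of replicate 1 were lower than the mean of the other replicates in most genes. The median ratio was 0.752 over expressed genes, those with a mean over 1 FPKM across the 18 libraries. FPKM are not scaled for library composition. The factor for this scale (TMM) was 0.620 in replicate 1, against 0.864 and 0.779 in replicates 2 and 3. How much of the lower FPKM goes with this scale was not tested. For the counts that rest most on wild-type cellulose replicate 3 or mutant D-fructose replicate 1, the values without them are also given.

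The 300 genes had a median level of 5.69 FPKM in the wild type on cellulose, taking for each gene the median of the group. The same value was 42.8 FPKM in the wild type on D-fructose, 53.2 in the wild type without carbon and 57.8 in Δxyr1-2 on cellulose. In the groups that the rule did not use it was 29.2 FPKM for Δxyr1-2 on D-fructose and 56.4 for Δxyr1-2 without carbon. In FPKM the mutant without carbon was thus at the level of the 3 high groups. The mutant on D-fructose lay below them but above the wild type on cellulose. TMM factors, which FPKM do not carry, were 0.80 to 0.82 in the wild type on cellulose and 0.887 to 0.973 on D-fructose. They were 0.620 to 0.864 in the mutant on D-fructose and 1.17 to 1.28 in the other 3 groups. Dividing by them would shift these groups in opposite directions, so the order of the higher groups depends in part on the scale. Of the 300 genes, 219 met the rule on TMM-rescaled FPKM.

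**Figure D1:**
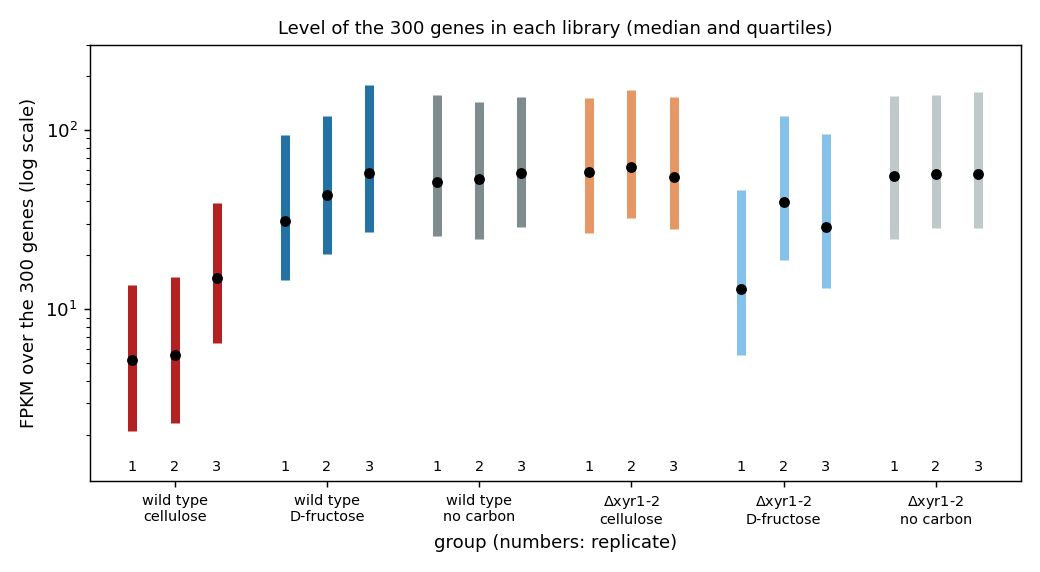
Levels of the 300 genes in each of the 18 libraries, as FPKM on a log scale. Points are medians over the genes, bars run from the lower to the upper quartile, and the numbers at the foot are replicates. The wild type on cellulose is lowest in replicates 1 and 2, and the median of replicate 1 of Δxyr1-2 on D-fructose, 13.1 FPKM, is the lowest of the 15 other libraries.

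The groups that the rule did not use were compared with the wild type on cellulose gene by gene. The median of Δxyr1-2 without carbon was at 3-fold or more of the wild type on cellulose for 299 of the 300 genes, with a median ratio of 8.07, beside 1.57 over all expressed genes. For Δxyr1-2 on D-fructose this held for 222 genes, with a median ratio of 4.26, beside 0.981 over all expressed genes. Without replicate 1 of that group it held for 259 genes, with a median ratio of 4.90. In neither group was any of the 300 below the wild type on cellulose. These ratios share the wild-type cellulose libraries that chose the genes, so they carry no test.

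All 3 libraries of the wild type on cellulose lay below all 3 libraries of the wild type on D-fructose for 259 genes (24.6% of all expressed genes), below the wild type without carbon for 286 (54.5%), and below Δxyr1-2 on cellulose for 289 (54.2%). They lay below all 3 of Δxyr1-2 without carbon for 285 genes (53.5%) and below all 3 of Δxyr1-2 on D-fructose for 136 (12.3%), which became 246 (24.3%) when replicate 1 of that group was left out. The wild-type cellulose libraries were below all 15 others for 133 genes (6.18%). With replicates 1 and 2 alone this held for 267 genes (16.0%). The rule fixed most of these separations, and the percentages in parentheses are the shares of all expressed genes that met the same condition.

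The counts of 133 and 267 genes differ only in whether replicate 3 of the wild type on cellulose was used. The rule took the median of the 3 libraries, so a gene could pass with 1 of them high. Replicate 3 was the highest of its group for 273 of the 300 genes (91.0%, against 48.4% of all expressed genes). Its level was a median of 2.54 times the mean of replicates 1 and 2, against 1.07 over all expressed genes. It was at 3 times that mean or more for 119 genes and at 10 times or more for 11. The same library also had the highest levels of xyr1, with 273 FPKM against 72.6 and 145, and of the cellobiohydrolase gene CEL6 (M431DRAFT_508689), with 8105 FPKM against 2317 and 1661. In that culture most of the 300 genes, xyr1 and the cellobiohydrolase genes CEL7A and CEL6 were thus above the other replicates. The part of this library in the results was not tested beyond leaving it out.

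**Figure D2:**
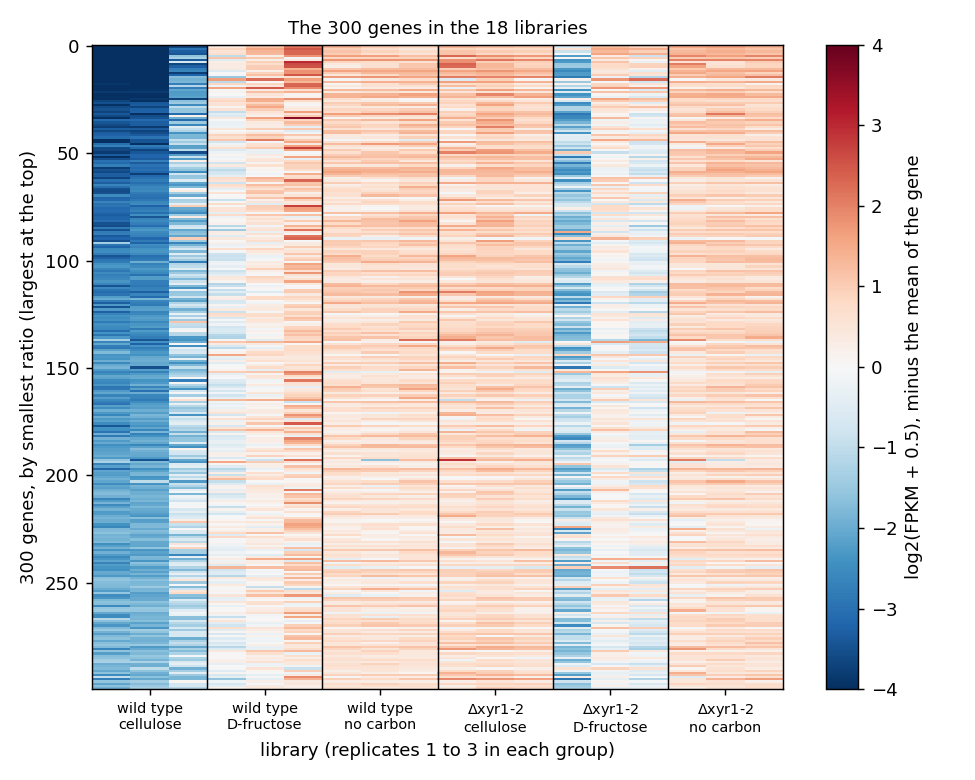
The 300 genes (rows, by smallest ratio to the wild type on cellulose, largest at the top) in the 18 libraries (columns, replicates 1 to 3 in each group). The color is log2(FPKM + 0.5) minus the mean of the gene over the libraries. Blue marks the wild type on cellulose, less so in its replicate 3, and also replicate 1 of Δxyr1-2 on D-fructose.

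The smallest of the 3 ratios had a median of 5.20 over the genes and a range of 3.15 to 299. It was at 10 or more for 51 genes, at 20 or more for 21, at 50 or more for 10 and at 100 or more for 5. D-fructose set it for 208 genes, no carbon for 57 and the mutant on cellulose for 35. The last genes inside were M431DRAFT_78495 and M431DRAFT_100810, both at 3.15. The first that were left outside by the limit of 300, M431DRAFT_505998 and M431DRAFT_11603, were also at 3.15 when rounded. M431DRAFT_92334 and M431DRAFT_511647 were the last at the threshold, at 3.00, and M431DRAFT_77791 and M431DRAFT_485626 fell just under it, at 2.99.

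The 5 genes with a ratio of 100 or more were neighbours. They belong to a run of 7 genes that follow each other without a gene between them, over 23542 bp on assembly Triha v1.0: M431DRAFT_488267, M431DRAFT_11439, M431DRAFT_366985, M431DRAFT_514175, M431DRAFT_11442, M431DRAFT_11443 and M431DRAFT_514178. The sources used here give no role for any of them. In all 7, the 3 wild-type cellulose libraries lay below the 15 other libraries, and the lowest of the 15 was 3.37 to 13.9 times the highest wild-type cellulose value.

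The most abundant gene of the run, M431DRAFT_366985, had 12.7, 16.5 and 234 FPKM in the wild type on cellulose. On D-fructose the wild type had 3302, 5421 and 10090.3 FPKM, and without carbon 3636, 2964 and 2517. The mutant had 3341, 3172 and 3189 FPKM on cellulose, 2791, 5369 and 5002 on D-fructose, and 3986, 4578 and 4042 without carbon. Every library other than those of the wild type on cellulose was therefore at 2517 FPKM or more, and the group medians differed by 174-fold to 318-fold in the contrasts that chose the gene.

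M431DRAFT_11442 had the highest smallest ratio of all, 299. It had 0.816, 1.57 and 21.4 FPKM in the wild type on cellulose, from 17, 33 and 445 reads. In the wild type it had 482, 886 and 1742 FPKM on D-fructose and 709, 618 and 561 without carbon. In Δxyr1-2 it had 794, 688 and 658 FPKM on cellulose, 252, 999.7 and 823 on D-fructose, and 878, 943 and 814 without carbon. Replicate 3 on cellulose was far above the other replicates of its group here too, but more than 10 times below the lowest of the other libraries.

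The remaining genes of the run repeated this pattern at other levels. In the wild type on cellulose, M431DRAFT_11439 had 0.439, 0.516 and 7.43 FPKM, with group medians of 187 to 286 in the other groups. M431DRAFT_514178 had 0.194, 0.260 and 4.50 FPKM, and M431DRAFT_11443 had 0.358, 0.331 and 5.58. The last 2 genes by ratio were M431DRAFT_514175, with 12.01, 12.01 and 36.6 FPKM and a smallest ratio of 19.1, and M431DRAFT_488267 at the edge of the run, with 4.29, 4.73 and 5.41 FPKM and a smallest ratio of 17.0. Replicate 3 was 1.20 times the mean of replicates 1 and 2 for M431DRAFT_488267 and 3.05 to 19.8 times for the other 6, so the genes did not share 1 size of difference between the cultures.

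**Figure D3:**
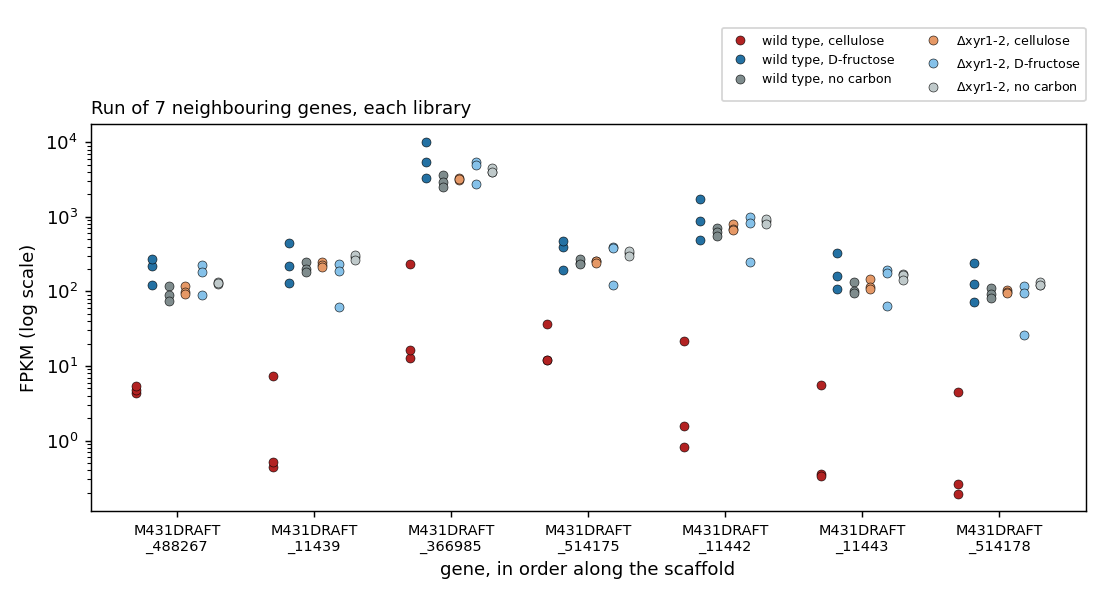
The run of 7 neighbouring genes in order along the scaffold, with FPKM on a log scale and 1 point for each library, colored by group. The red points, the wild type on cellulose, lie below all other points of the same gene, and the upper red point is replicate 3 in each gene.

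The genes next to the run behaved differently. M431DRAFT_525910 on one side and M431DRAFT_536055 on the other had group medians under 1 FPKM in all 6 groups. The next gene beyond M431DRAFT_525910, M431DRAFT_514170, had a smallest ratio of 3.15 but medians of 7.85 FPKM in the wild type on D-fructose and 8.33 without carbon, so it missed the floor of 10. The run was therefore bounded by genes with little mRNA. Across the 15 libraries other than the wild type on cellulose, the log2 levels of the 7 genes had pairwise Pearson correlations of 0.49 to 0.98 (median 0.86 over 21 pairs), a description over libraries that share depth and culture conditions.

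Other members were also neighbours. With at most 1 other gene between members, 63 of the 300 fell into 27 runs, of which 4 held 3 genes and 22 held 2. The number of runs that 300 genes placed without order would form was not computed, so these counts are a description only. M431DRAFT_502644, M431DRAFT_73268 and M431DRAFT_489274, which are all among the 12 genes with the highest smallest ratio, formed 1 of the runs of 3. M431DRAFT_489274 had 0.167, 0.132 and 1.37 FPKM in the wild type on cellulose, from 5, 4 and 41 reads, and 29.7, 37.2 and 144 on D-fructose. Its smallest ratio of 53.0 thus rested on few reads in the low group.

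The 4 further genes among the first 12 by ratio were M431DRAFT_78486 (91.0), M431DRAFT_509414 (72.5), M431DRAFT_72525 (70.7) and M431DRAFT_509041 (56.6). M431DRAFT_509414 had 13.9, 19.1 and 320.0 FPKM in the wild type on cellulose and 1772, 1688 and 776 on D-fructose. M431DRAFT_509041 had 0.540, 0.534 and 21.2 FPKM on cellulose and 42.0, 68.1 and 285 on D-fructose. Replicate 3 was again the high value on cellulose in both, and no role is given for these 4 genes in the sources used here.

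The largest amounts of mRNA came from a pair of short genes, M431DRAFT_45093 and M431DRAFT_489366, named after their values were seen. M431DRAFT_45093 had 9864, 10596 and 21136 FPKM in the wild type on cellulose and 53489 to 86499 FPKM in the 15 other libraries. M431DRAFT_489366 had 7069, 8919.5 and 12572 FPKM on cellulose and 32073 to 71585 in the others. Neither gene overlapped between the cellulose cultures of the wild type and the rest. Together they made up 1.74% to 3.60% of all FPKM in the wild type on cellulose and 8.22% to 14.8% in the other libraries, and the 298 other genes made up 0.765% to 2.65% and 2.69% to 10.2%. In reads, all 300 took 1.28% to 3.25% of the wild-type cellulose libraries and 5.38% to 14.9% of the others.

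The annotation used here was a part of the study's own table that covers 818 genes, 27 of them members, and roles could be read from it for 23 of the 300. Carbon catabolism, transport and hydrolysis of polysaccharides were the groups with more than 2 genes. List sizes given below count the genes in this part of the table and not the full lists of the study, so no share of a pathway or family follows from them.

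In carbon catabolism, 3 of the 93 genes in the part used were members. They included both enzymes that are specific to the glyoxylate cycle, isocitrate lyase, which splits isocitrate into succinate and glyoxylate, and malate synthase, which joins glyoxylate with acetyl-CoA. Isocitrate lyase (M431DRAFT_2255, the acuD ortholog) had 50.9, 54.5 and 68.8 FPKM in the wild type on cellulose. It had 282, 201 and 409 FPKM in the wild type on D-fructose, 405, 392 and 651 without carbon, and 281, 364 and 384 in Δxyr1-2 on cellulose. In the cultures not used by the rule it had 333, 254 and 192 FPKM on D-fructose and 326, 435 and 425 without carbon, so the wild type on cellulose was below all 15 other libraries.

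Malate synthase (M431DRAFT_507821) had 12.3, 16.1 and 15.1 FPKM in the wild type on cellulose. It had 56.3, 83.0 and 138 FPKM in the wild type on D-fructose, 176, 174 and 244 without carbon, and 145, 171 and 187 in Δxyr1-2 on cellulose. The mutant had 41.6, 82.0 and 50.6 FPKM on D-fructose and 136, 179 and 202 without carbon. Again no library overlapped with the wild type on cellulose, and for both enzymes its 3 replicates lay close together, unlike most of the 300. Between the mutant cultures on D-fructose and without carbon, neither gene was called. The log2 fold change was 0.15 ± 0.32 (SE) for isocitrate lyase, with an edgeR adjusted p of 0.71. For malate synthase it was -0.90 ± 0.22 with an adjusted p of 0.012, under the fold change of 2 that a call needs. The test scales libraries by TMM and FPKM do not, so these fold changes are not ratios of the FPKM above. Over the 18 libraries the TMM factors were 0.620 to 0.864 for the mutant on D-fructose and 1.20 to 1.23 without carbon. In FPKM the isocitrate lyase median was lower on D-fructose, 254 against 425.

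The other genes that the study lists under the tricarboxylic acid cycle in the part used did not share this pattern. Of the 21 genes with this entry, not all of them enzymes of the cycle itself, the glyoxylate pair were the only members. Of the 19 others, 17 had their highest median of the 4 groups of the rule in the wild type on cellulose. The citA ortholog (M431DRAFT_485868), which in Aspergillus encodes citrate synthase, had a median of 712 FPKM there against 248 in the wild type on D-fructose, 150.2 without carbon and 139.9 in Δxyr1-2 on cellulose. The one listed gene with lower FPKM on cellulose than in all 3 high groups, the mcsA ortholog (M431DRAFT_99386), had a smallest ratio of 1.09. The pair was selected by the rule, and the difference from the other genes on the list is given without a test.

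**Figure D4:**
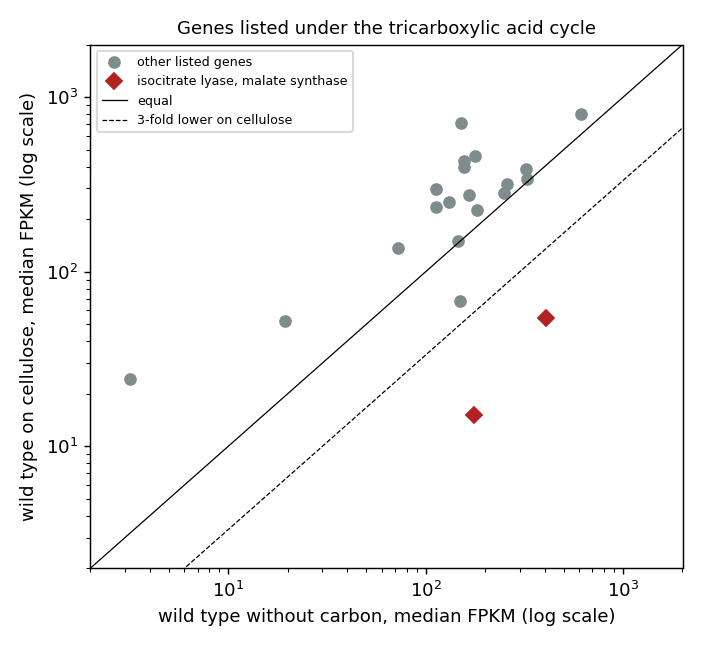
The 21 genes listed under the tricarboxylic acid cycle in the part of the annotation used, each as its median FPKM in the wild type on cellulose (vertical, log scale) against the wild type without carbon (horizontal, log scale). The solid line marks equal levels and the dashed line a level 3-fold lower on cellulose. Isocitrate lyase and malate synthase (red) lie below the dashed line, and most other genes lie above the solid line.

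The third gene of carbon catabolism, M431DRAFT_513325, is listed as araE of the alternative L-arabinose pathway and has an aldehyde dehydrogenase domain. Another gene with the same araE entry, M431DRAFT_495261, was not a member. It had wild-type medians of 78.7 FPKM on cellulose and 99.7 on D-fructose, and a smallest ratio of 1.27. M431DRAFT_513325 had 2.87, 3.47 and 19.7 FPKM in wild-type cellulose cultures, 12.3, 23.9 and 49.4 on D-fructose, and 50.2, 53.0 and 45.3 without carbon. The cellulose value of replicate 3 was above the lowest D-fructose value, so these groups overlapped. Its neighbours M431DRAFT_98783 and M431DRAFT_513328 were members as well, with smallest ratios of 6.78 and 4.08, and formed another run of 3 with it.

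Of the 90 genes with the sugar transporter domain, 4 were members (4.44%, against 2.10% of all annotated genes). Proteins with this domain move hexoses and other small molecules across the membrane. The most abundant member, M431DRAFT_93498, had 34.3, 31.9 and 178 FPKM in the wild type on cellulose. It had 427, 396 and 296 FPKM on D-fructose and 974, 945 and 1012 without carbon in the wild type, and 773, 858 and 943 in Δxyr1-2 on cellulose. All of these were above the wild type on cellulose. M431DRAFT_89227 and M431DRAFT_85880 had smallest ratios of 6.72 and 5.48. In M431DRAFT_82579, with a ratio of 4.39, replicate 3 was the lowest of the cellulose cultures, at 1.54 FPKM against 3.68 and 2.47. This set it apart from the other 3 transporters among the members.

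Of the 69 carbohydrate-active enzymes in the part used, 3 were members. M431DRAFT_88799, of glycoside hydrolase family GH28, is annotated as an exo-polygalacturonase or rhamnogalacturonase, enzymes that act on pectin. It had 12.8, 13.9 and 85.8 FPKM in wild-type cellulose cultures, 362, 620.1 and 1842 on D-fructose, and 1606, 1540.3 and 1562 without carbon. In Δxyr1-2 it had 1587, 1791 and 1542 FPKM on cellulose, 87.6, 666 and 385 on D-fructose, and 1369, 1519 and 1579 without carbon. The wild type on cellulose was below all the others, but replicate 1 of the mutant on D-fructose, at 87.6 FPKM, was close to replicate 3 on cellulose, at 85.8.

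The glucoamylase M431DRAFT_81370 (GH15), which releases glucose from starch, had 2.73, 3.61 and 15.5 FPKM in the wild type on cellulose and 16.6, 27.0 and 53.8 on D-fructose. M431DRAFT_524327, of the lysozyme family GH25, had 3.72, 4.34 and 9.40 FPKM on cellulose and 19.6, 27.8 and 24.0 on D-fructose. Both groups were separate in both genes. The other glucoamylase in the part used, M431DRAFT_81392, was not a member. Its wild-type medians were 110 FPKM on cellulose, 36.9 on D-fructose and 361 without carbon, with 421 in Δxyr1-2 on cellulose. Annotated members outside these lists included a pair of cytochromes P450 (M431DRAFT_495634 and M431DRAFT_145803), a pair of AMP-binding enzymes (M431DRAFT_525433 and M431DRAFT_479794), a sulfite oxidase-type enzyme (M431DRAFT_492589) and the C2H2 zinc finger genes M431DRAFT_483876 and M431DRAFT_65826.

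Of the 300 genes, 297 are protein coding and 3 are tRNA genes (M431DRAFT_t45, M431DRAFT_t26 and M431DRAFT_t39). The tRNA genes had at most 11 reads in a wild-type cellulose library and at most 90 in any library, and the libraries were made from poly-A RNA, so their levels are uncertain. The median length of the 300 was 1467.5 bp against 1340 bp over all genes.

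The comparison of Δxyr1-2 on D-fructose with Δxyr1-2 without carbon was the only one in which neither group had been used to choose the genes. All 300 passed the filter on low counts, and the edgeR quasi-likelihood test with Benjamini-Hochberg adjustment over 11312 genes called 83 of them, 63 lower and 20 higher on D-fructose. Calls were limited to genes that changed more than 2-fold, with an adjusted p below 0.05 and over 1 FPKM on average in a group. Over all genes 39.0% were called, 18.7% lower and 20.3% higher, and of the members 27.7% were called, 21.0% lower and 6.67% higher. The rule kept the wild-type D-fructose and no carbon levels within 3-fold of each other. No member was called between the strains on either source, as given below, so the rule limits this difference in the mutant too. Of the 83 called members, 81 changed in the direction of the wild-type FPKM medians. The wild-type median was higher without carbon than on D-fructose for 214 of the 300. The share called and its direction are therefore not independent of the choice of the genes. The median log2 fold change was -0.46 over the members and -0.05 over all genes. Fold changes of this test use TMM scaling, so they differ from the ratios of the FPKM printed with them below.

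Of the genes called lower on D-fructose, M431DRAFT_511858 changed most. It had 5.15, 33.4 and 16.9 FPKM in the mutant on D-fructose and 107, 118 and 168 without carbon, a log2 fold change of -2.24 ± 0.51 (SE, n = 3 against 3, edgeR adjusted p = 0.00899). The zinc finger gene M431DRAFT_483876 had 3.60, 16.4 and 14.1 FPKM on D-fructose and 83.4, 66.4 and 75.5 without carbon, a log2 fold change of -2.11 ± 0.41 (edgeR adjusted p = 0.00476). In both genes all 3 D-fructose libraries were below all 3 without carbon, and replicate 1 was the lowest. The other genes among the 4 largest falls were M431DRAFT_92930 at -2.14 and M431DRAFT_219429 at -1.97.

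Among the genes called higher on D-fructose, M431DRAFT_74492 had 147.5, 282 and 355 FPKM in the mutant on D-fructose and 57.4, 69.3 and 59.9 without carbon, a log2 fold change of 2.73 ± 0.26 (edgeR adjusted p = 0.000305). M431DRAFT_479531 had 137, 161 and 188 FPKM on D-fructose and 49.8, 50.3 and 43.2 without carbon, a log2 fold change of 2.46 ± 0.16 (edgeR adjusted p = 7.8e-05). The groups did not overlap in either gene. M431DRAFT_484635 and M431DRAFT_10532 had log2 fold changes of 2.01 and 1.98.

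Of the genes described above, the glucoamylase M431DRAFT_81370 fell on D-fructose in the mutant (log2 fold change -1.22 ± 0.39, edgeR adjusted p = 0.0309). So did the transporter M431DRAFT_89227 (-1.14 ± 0.33, adjusted p = 0.0232). M431DRAFT_78486 and M431DRAFT_72525 also fell, by 1.83 and 1.64 on the log2 scale. These 4 calls depended on single libraries: each was lost without replicate 3 of the mutant on D-fructose, and without replicate 1 of that group the glucoamylase and the transporter had log2 fold changes of -0.89 and -0.85 and were not called. The 8 genes with the largest changes kept their calls in every alternative. None of the 7 genes of the run was called, with log2 fold changes of -0.20 to 0.99. M431DRAFT_488267, at 0.99 with an edgeR adjusted p of 0.00922, lay just under the 2-fold limit and was called higher on D-fructose with DESeq2 (1.02), with RLE factors (1.03), without replicate 1 of the mutant on D-fructose (1.21) and without replicate 2 of the mutant without carbon (1.01). The run was thus high on D-fructose as well as without carbon in the mutant.

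Scaling by library size alone gave 143 called members, 137 lower and 6 higher, with a median log2 fold change of -1.09, beside -0.73 over all genes and 21.7% of all calls higher in place of 52.0%. Without replicate 1 of the mutant on D-fructose, 66 were called, 42 lower and 24 higher. Leaving out replicate 3 of that group gave 54, and leaving out replicate 2 or 3 of the cultures without carbon gave 55 and 54.

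**Figure D5:**
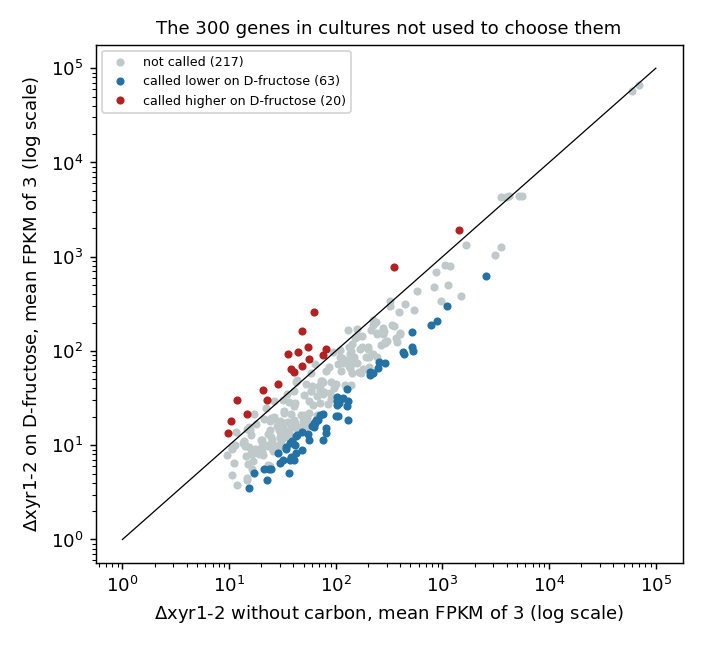
The 300 genes in Δxyr1-2, as mean FPKM of 3 cultures on D-fructose (vertical, log scale) against mean FPKM of 3 cultures without carbon (horizontal, log scale). Blue points are the 63 genes called lower on D-fructose, red points the 20 called higher, and gray points the 217 not called. The line marks equal FPKM, which is not equality in the test, since the test uses TMM scaling and FPKM do not.

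The strains were set side by side on the carbon sources other than cellulose, where 1 group of each comparison had been used by the rule. On D-fructose no member was called between Δxyr1-2 and the wild type (0.00917% of all genes were called), and DESeq2 also called 0 (1.02% of all genes), while 18 had an unadjusted edgeR p under 0.05 (6%, against 8.05% of all genes). That number was 8 to 50 when 1 library was left out, 38 with all 18 libraries in one fit and 67 with the replicate block. Without carbon again 0 members were called (0.132% of all genes), also by DESeq2 (0.173%), and 39 had an unadjusted p under 0.05 (13%, against 6.48% of all genes). That number was 0 with all 18 libraries in one fit, 43 with the replicate block and 29 to 52 when 1 library was left out. The group medians of the strains were within 2-fold of each other for all 300 genes without carbon, with a median ratio of mutant to wild type of 1.03, and for 263 genes on D-fructose, with a median ratio of 0.707. Without replicate 1 of the mutant on D-fructose, 293 genes were within 2-fold there, with a median ratio of 0.831. In FPKM, replicate 1 of the mutant on D-fructose was the lowest of its group in 278 of the 300 (92.7%, against 66.7% of all expressed genes). Its median was 0.392 times the mean of the other replicates, against 0.752 over all expressed genes. These medians and ratios carry no TMM scaling.

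Within the mutant, cellulose and no carbon gave 0 called members (0.0782% of all genes), also by DESeq2 (0.123%), with 21 at an unadjusted edgeR p under 0.05 (7%, against 4.47% of all genes). That number was 1 with all 18 libraries in one fit, 34 with the replicate block and 10 to 40 when 1 library was left out. Between cellulose and D-fructose in the mutant, 84 members were called, 66 higher and 18 lower on cellulose (39.6% of all genes, 19.6% higher and 19.9% lower). Leaving out replicate 3 of the mutant on D-fructose lowered this count to 54. The medians of the mutant on cellulose and of the wild type without carbon, both used by the rule, were within 2-fold of each other for 298 genes, with a median ratio of 1.05.

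In the contrasts that chose the genes, the count model gave the following numbers, which carry no evidence about the set. The wild type on cellulose was called lower than the wild type on D-fructose for 147 members (4.81% of all genes), lower than the wild type without carbon for 227 (22.1%), and lower than Δxyr1-2 on cellulose for 227 (21.5% of all genes were higher in the mutant). With the replicate number as a block the first count was 271, a value that holds if a number marks the same set of pre-cultures on each carbon source, which was read from the protocol and is not stated for the numbers. Leaving out replicate 3 of the wild type on cellulose gave 295, while leaving out its replicate 1 or 2 gave 59 and 51. Without its replicate 3 the count against no carbon became 298 and that against the mutant 299, and without its replicate 1 or 2 these counts were 182 to 190. Leaving out replicates 1, 2 and 3 of the wild type on D-fructose gave 92, 54 and 83. The direction was the same in each case. Between the wild type on cellulose and without carbon, the median log2 fold change was -2.01 over the members and -0.06 over all genes, and with library size only it was -2.57 and -0.65. FPKM carry that second scale.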

How the data were processed

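RNA-seq reads of 18 libraries were cleaned by the authors, mapped with STAR 2.5.2b to the CBS 226.95 genome and counted per gene with HTSeq 0.5.4, and these whole-number counts were deposited. FPKM, which the authors scaled for gene length and library size, were deposited as well. FPKM gave the levels and the rule, and counts gave the tests. Both tables hold 14650 genes, all 300 genes were found in the reference annotation, and groups and replicates came from the labels.

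Each pair of groups (6 libraries) was fitted with edgeR 4.0.16 in R 4.3.3 (TMM, filterByExpr defaults, quasi-likelihood F-test), with Benjamini-Hochberg adjustment over all genes tested. Calls were limited to genes that changed more than 2-fold, with an adjusted p below 0.05 and over 1 FPKM on average in a group. Standard errors were derived from the F statistic. Scripts were tested on simulated data, and other values used Python 3.11.15 with pandas 2.3.3 and numpy 2.4.6. Alternatives were DESeq2 1.42.0, RLE factors, library size only, no filter, all 18 libraries in one fit, a replicate block and leaving out each library. For the rule they were means, TMM-rescaled FPKM, other pseudocounts, folds and floors. Leaving out replicate 1 of the mutant on D-fructose from the medians and overlaps was chosen after seeing the data.

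Per the labels, replicate cultures of a strain on different carbon sources came from shared sets of pre-cultures, and that a number marks the same set was read from this and is not stated. Same-numbered deviations correlated at 0.43, 0.22 and 0.41 for the wild type on cellulose and D-fructose. For the wild type on cellulose and without carbon the values were -0.09, 0.08 and 0.00. In the mutant they were 0.22, 0.21 and 0.15 for cellulose and no carbon, and 0.18, 0.16 and 0.09 for cellulose and D-fructose. They were -0.00, 0.05 and -0.07 for the mutant on D-fructose and without carbon. The members and lists were chosen with earlier results of these data known. Named genes were the 12 with the highest smallest ratio, the 4 largest rises and falls among called genes, genes at the thresholds, members with an enzyme, transporter or carbon catabolism entry, members of runs of neighbours, and label checks. Product classes and promoter motifs were not used here.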

Additional observations from a re-analysis of the deposited data

How the results depend on the processing

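The rule was met by 323 genes as written, by 662 with a 2-fold threshold, by 492 without the floor of 10 FPKM, and by 177 to 445 when 1 of the 12 libraries was left out. The lowest counts, 177 and 186, came when the first or second wild-type cellulose culture was dropped, and 219 of the 300 genes met it on TMM-rescaled FPKM. For the mutant on D-fructose against no carbon, 143 members were called with library size only, against 83, and 54 to 110 when 1 library was left out. With the replicate block it was 93. The median log2 fold change was -0.66 to -0.23 when 1 library was left out. For the mutant on cellulose against D-fructose, library size only gave 147 calls against 84, and leaving out 1 library gave 54 to 112. For the wild type on cellulose against D-fructose, DESeq2 gave 230, all libraries in one fit 267, the replicate block 271 and leaving out 1 library 51 to 295, against 147. The replicate block moved no other count of called members by over 1.5 times. Single genes named for the mutant on D-fructose against no carbon never changed direction with a call, and lost a call in 17 and gained a call in 21 of the pairs of a gene and an alternative. The causes of these shifts were not tested. Depth limits genes with few reads on cellulose: 6 of the 300 had under 30 reads in the 3 wild-type libraries together.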
